A study of Mus musculus with 2 samples.

Results

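The 10 genes described here are the immediate early response genes Egr1, Egr2, Egr3, Fos, Fosb, Fosl1, Jun, Junb, Ier2 and Ier3. They were chosen by name, as every non-control probe that the array's annotation assigns to one of these genes, and this gave 13 of the 41168 probes used and 10 of the 27957 named genes. All 10 genes had a probe well above background on both arrays, against 17311 of the 18686 genes that were measured on at least 1 array. RNA came from 2 mouse lines of strain 129/Ola. Both were made from N31, a line of neural progenitors that was itself obtained by reprogramming and carries Oct3/4, Sox2, Klf4 and c-Myc under the control of doxycycline. One line carried an EGFP transgene and the other a Pax6 transgene, each introduced with the Tol2 transposon behind the CAG promoter, and both had received doxycycline for 24 h. The lines therefore share the 4 inducible reprogramming factors and differ, by the labels, in EGFP or Pax6, and the labels do not say whether each is 1 clone. At that time the cells' shape had visibly altered in the EGFP line alone, per the series' design text. Each line was measured on 1 single-colour Agilent whole mouse genome array. No line has a replicate array, so no p-value is given, the culture and the transgene cannot be told apart, and no array without doxycycline was analysed here.

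Immediate early genes are transcribed within minutes of a growth factor, serum or stress signal, without new protein synthesis. ERK-activated ETS factors with SRF at the CArG boxes of serum response elements, and CREB at cyclic AMP response elements, switch them on, and their RNAs are short-lived. Fos and Jun proteins pair through leucine zippers into the AP-1 transcription factor, Egr proteins bind GC-rich DNA through zinc fingers, and the Ier genes encode small regulators without such a domain. With 1 time point, when these RNAs were made was not tested.

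The stretches of promoter printed next set the starts of 4 of the genes side by side, with matches to the elements named above in 3 of them and none in Ier3. Fosb was the member with the largest difference between the arrays, Fos is its close relative and lay near 0, Ier3 was the lowest member, and Egr2 was the only member whose window held a CArG box. Each run is the 150 bases before the transcription start on the gene's strand, from RefSeq on GRCm38.p6. Capitals mark a CArG box, the core TGACG of the cyclic AMP response element, an EGR site or an ETS site on either strand.
Fosb, chr7:19310046-19310195, minus strand: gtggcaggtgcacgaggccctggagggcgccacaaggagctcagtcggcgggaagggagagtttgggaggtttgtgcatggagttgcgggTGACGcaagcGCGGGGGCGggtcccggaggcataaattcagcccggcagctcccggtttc
Fos, chr12:85473740-85473889, plus strand: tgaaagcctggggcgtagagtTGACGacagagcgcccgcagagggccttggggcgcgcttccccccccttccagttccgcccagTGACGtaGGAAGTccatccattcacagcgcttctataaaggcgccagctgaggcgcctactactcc
Egr2, chr10:67537719-67537868, plus strand: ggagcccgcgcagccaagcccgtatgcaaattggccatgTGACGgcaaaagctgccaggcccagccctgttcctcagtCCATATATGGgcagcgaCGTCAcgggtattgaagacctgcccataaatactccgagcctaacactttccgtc
Ier3, chr17:35821563-35821712, plus strand: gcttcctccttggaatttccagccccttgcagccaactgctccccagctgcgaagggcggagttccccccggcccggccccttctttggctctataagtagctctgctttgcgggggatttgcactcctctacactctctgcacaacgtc

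Windows of 300 bases, 250 before and 50 after a start, were at hand for 6 of the 10 genes (Fosb, Fos, Jun, Junb, Egr2 and Ier3), in 10 windows of which 5 belong to Egr2. The 6 motifs were searched on both strands. The CArG box was found in 4 of the 5 Egr2 windows and in no other member, and in 1.63% of all 32851 windows. Most of these 4 Egr2 windows overlap and hold the same box, so they are not separate finds. In the Egr2 stretch shown the box starts 72 bases before the start. The core TGACG was found in Fosb, Fos, Junb and Egr2 and in 20.8% of all windows. In Fosb it starts 60 bases before the start and in Fos 66 and 129 bases before it. An EGR site, spelled GCGTGGGCG or GCGGGGGCG, was found in Fosb, starting 50 bases before the start, and in 3.47% of all windows. The ETS site GGAAGT was found in Fos and Junb and in 23.8% of all windows. The full response element TGACGTCA, found in 1.79% of all windows, and the AP-1 site, TGAGTCA or TGACTCA, found in 5.20%, were in none of the members' windows. These are matches of letters, and elements further from the start lie outside the windows. Fosb and Fos share the core TGACG at a like distance, and whether it bears on their values, described below, was not tested.

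Signals below are the scanner software's background-subtracted values in arbitrary units. Differences are on the log2 scale, Pax6 minus EGFP, after each array was divided by the 75th percentile of its signals (854 for EGFP and 991 for Pax6), so a raw signal has to be about that much higher on the Pax6 array to count as equal. The value after ± is the software's measurement error of the difference and covers the measurement on these arrays, not the variation between cultures. Signals of different probes are not comparable with each other, so the genes were not ordered by level. Genes are counted at 2 rules of size, at least 2-fold and at least 1.5-fold.

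The 10 genes did not lie on 1 side of 0. Of the 10, Fosb alone passed the 2-fold rule, on the higher side, while 4.79% of all 18686 measured genes passed it (2.4% higher and 2.39% lower on the Pax6 array). At the 1.5-fold rule 2 members were higher, Fosb and Egr1, and 1 was lower, Ier3, where 5.98% of all genes were higher and 7.64% lower (13.6% in both directions together). The other 7 lay within 1.5-fold. Differences above 0 were found in 5 members and in 47.3% of all genes. The members' median difference was 0.07 and that of all genes -0.01, while the median absolute difference was 0.40 for the members and 0.18 for all genes.

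**Figure D1:**
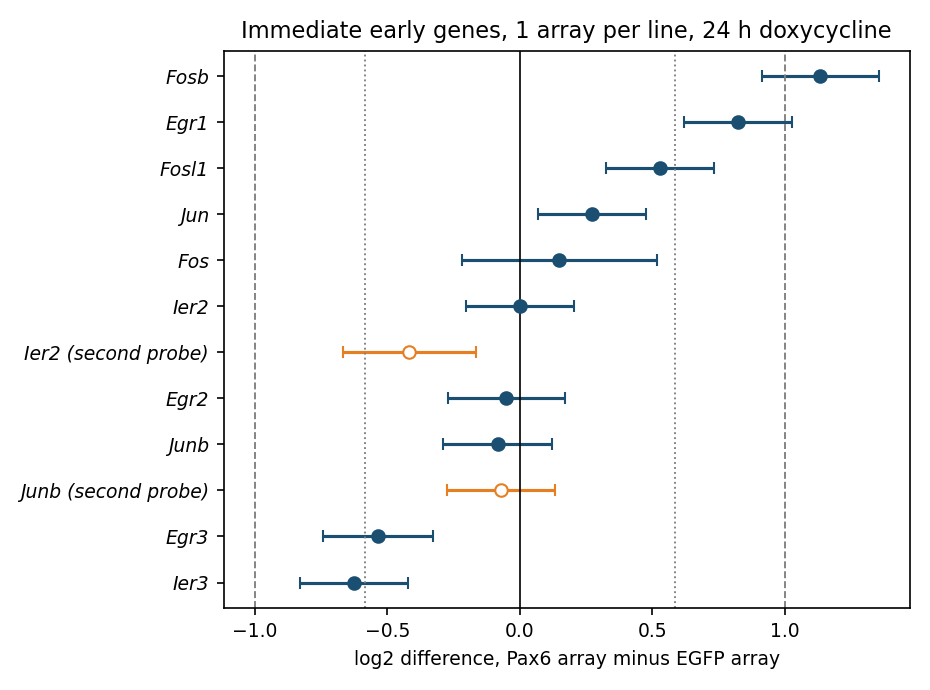
Log2 differences (Pax6 array minus EGFP array, x axis) of the 12 member probes above background, 1 array per line. Filled points are the brighter probe of each gene, open points a second probe, and bars the measurement error. Dotted lines mark 1.5-fold and dashed lines 2-fold. Fosb lies beyond 2-fold, Egr1 and Ier3 lie beyond 1.5-fold on opposite sides, and the bars of Fos, Ier2, Egr2 and Junb cross 0 for the brighter probe.

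Among the Fos genes, whose proteins pair with Jun proteins, Fosb was higher on the Pax6 array, Fosl1 was higher by less, and Fos was near 0. The Fosb probe read 38.2 for EGFP and 97.3 for Pax6, at chromosome 7, 16985502 to 16985561 (mm7). Its difference was 1.13 ± 0.22, or 2.19-fold, and 1.83% of all measured genes were as high or higher. The gene has 1 spot on each array and no second probe, and its signal is low. Among 48 probes with replicate spots and an EGFP signal from 20 to under 200, the SD of the difference over spots had a median of 0.15 and a largest value of 0.51. These SDs cover the spotting of 1 labelled RNA per line and say nothing of the variation between cultures. With normexp background correction, Fosb differed by 0.58 and was no longer past either rule. That setting adds an offset of 50 to every signal, which shrinks the differences of dim probes. The offset exceeds the EGFP signal of Fosb, so a smaller difference was built in.

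Fosl1, which encodes Fra-1, a Fos protein without the C-terminal activation domain of Fos and itself a target of AP-1, read 1984 for EGFP and 3318 for Pax6 (chromosome 19, 5350302 to 5350361). Its difference of 0.53 ± 0.20 (1.44-fold) was 2.59 times its measurement error, just under the 1.5-fold rule, and after scaling by each array's median it was 0.61 and past it. Fos itself, the gene of c-Fos, was close to background. Its probe (chromosome 12, 83478431 to 83478490) is printed 10 times on each array. On the EGFP array the lowest, median and highest spot read 11.6, 12.9 and 16.6, with 8 of 10 spots well above background, and on the Pax6 array 14.0, 18.4 and 19.4, with all 10. The ranges of the 2 arrays overlap. The difference of Fos was 0.15 ± 0.37 with an SD of 0.23 over the spots, and 8 of 10 spots were above 0. Its value is smaller than both, but both describe single spots and not the mean over 10.

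Of the Jun genes, which encode the partners of the Fos proteins, Jun was slightly higher on the Pax6 array and Junb was not different beyond its error. Jun (chromosome 4, 94441779 to 94441838) also has 10 spots, of which 1 was left out as an outlier. The 9 spots read 1229, 1557 and 1715 (lowest, median and highest) for EGFP and 2074, 2143 and 2302 for Pax6, so the raw signals of the 2 arrays do not overlap. After scaling, the difference was above 0 in 9 of 9 spots, from 0.19 to 0.54, with a mean of 0.27 and an SD of 0.10. The spots share 1 labelled RNA, so they show how well this array pair measured Jun and not how it varies between cultures, and its measurement error was 0.20. Junb, whose protein can oppose Jun at some promoters, has 2 probes 38 bases apart. They read 6930 and 5790 for EGFP and 7580 and 6395 for Pax6, at chromosome 8, 83563059 to 83563118 and 83563097 to 83563156. Their differences of -0.08 and -0.07 were both smaller than the error of 0.20.

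**Figure D2:**
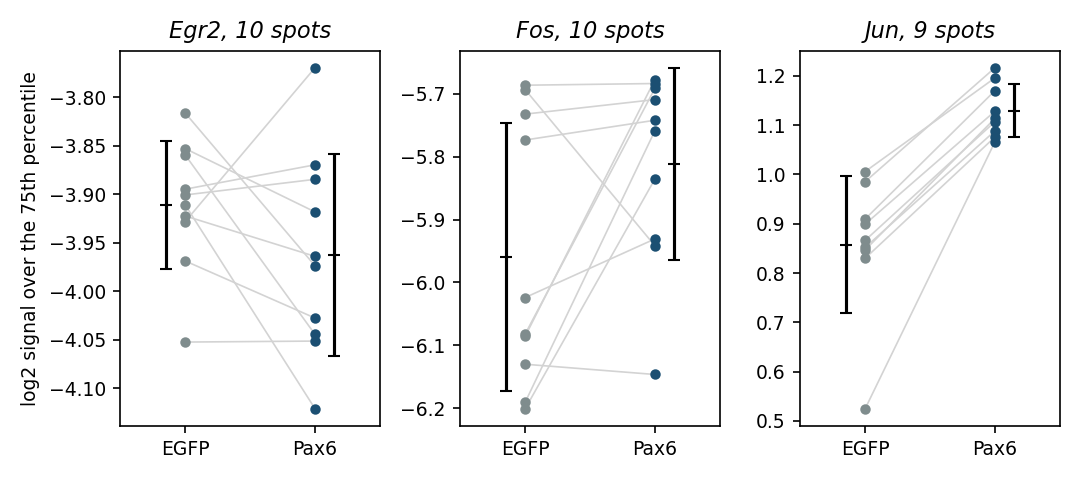
Log2 signal over the array's 75th percentile (y axis, a separate scale per panel) of every kept replicate spot of Egr2, Fos and Jun on the EGFP and the Pax6 array. Grey lines join the same spot position, and the bars give the mean and SD over spots. The 9 Jun spots were all higher on the Pax6 array, while 4 of 10 Egr2 spots and 8 of 10 Fos spots were.

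The Egr genes went different ways. Egr1, a zinc finger factor induced through serum response elements, was higher on the Pax6 array, with signals of 1148 and 2356 from 1 spot on each array (chromosome 18, 35240842 to 35240901). Its difference was 0.82 ± 0.20 (1.77-fold), 4.04 times its error, and 3.42% of all measured genes were as high or higher. It was past the 1.5-fold rule under all 12 alternative settings tried, between 0.82 and 0.91. With 1 probe, above background on both arrays, only those that change the scaling or the background correction could move its value. Egr2, also called Krox-20 and known from hindbrain segments and myelinating Schwann cells, was level. Its 10 spots (chromosome 10, 67145376 to 67145435) read 51.5, 57.0 and 60.6 (lowest, median and highest) for EGFP and 56.9, 63.3 and 72.6 for Pax6, and the ranges overlap. The scaled difference was -0.05 ± 0.22, with an SD of 0.11 over spots and 4 of 10 spots above 0.

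Egr3 was lower on the Pax6 array by 1 probe, with signals of 144 and 116 (chromosome 14, 64726656 to 64726715) and a difference of -0.54 ± 0.21 (1.45-fold lower). This probe was designed to a cDNA clone. The probe designed to the RefSeq transcript of Egr3 (chromosome 14, 64723504 to 64723563) had signals of only 3.84 and 3.44 and was not well above background in either line. The value of Egr3 therefore rests on the clone's probe, and the labels do not say which part of the transcript that probe reads. With normexp background correction, whose offset shrinks the differences of dim probes, the difference was -0.32. Egr4, the remaining gene of the family and no member of the set, did not clear background in either line.

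The Ier genes encode small proteins induced together with the transcription factors. Ier3, also called IEX-1, a regulator of survival and of ERK signalling, was the lowest member, with signals of 2899 for EGFP and 2179 for Pax6 (chromosome 17, 33924245 to 33924304). Its difference was -0.63 ± 0.20 (1.54-fold lower), and 6.76% of all measured genes were as low or lower. It was just past the 1.5-fold rule and fell short of it at -0.54 both after scaling by each array's median and with normexp background correction. Egr3, at 1.45-fold, and Fosl1, at 1.44-fold, lay just inside. Ier2, a nuclear protein gene, was level by its bright probe (chromosome 8, 83243584 to 83243618), with signals of 3035 and 3518, which scaling brings to the same value within the error of 0.20. A dimmer probe of Ier2 (chromosome 8, 83243758 to 83243816) read 37.0 and 32.2 and differed by -0.42 ± 0.25, so the 2 probes disagree by more than the median gap of 0.12 between the 2 brightest probes of 6014 genes. No annotation of build mm7 was used here, so whether the probes lie in coding or untranslated exons is not stated.

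**Figure D3:**
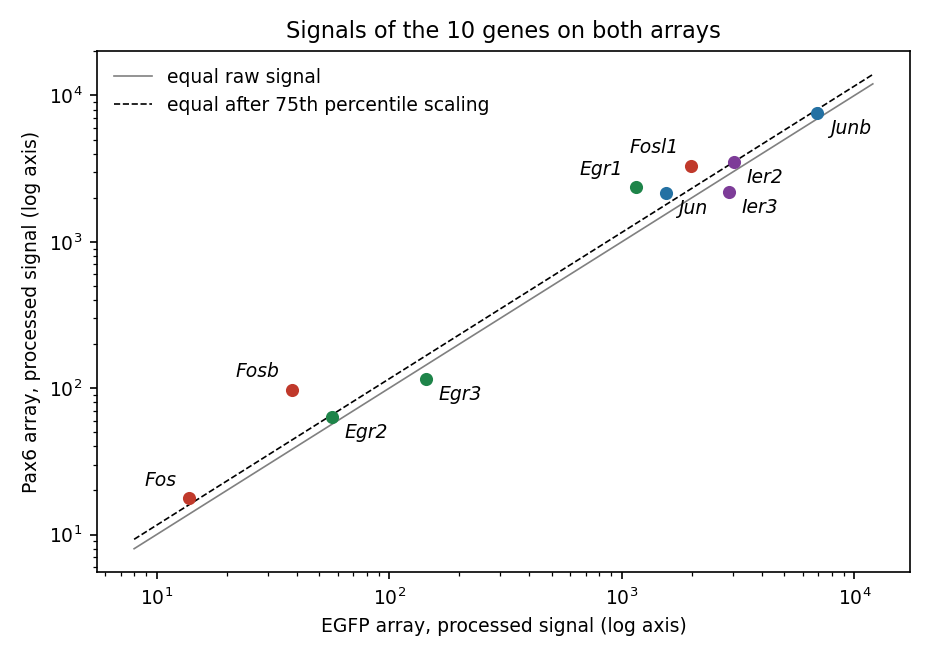
Processed signal of each member's brighter probe on the EGFP array (x axis) and the Pax6 array (y axis), both on log axes, coloured by family (Fos red, Jun blue, Egr green, Ier purple). The grey line marks equal raw signals and the dashed line equal signals after scaling. Fosb and Egr1 lie farthest above the dashed line, Ier3 and Egr3 farthest below it, and Fos sits at the dim end, with signals of 13.7 and 17.6 as means on the log scale.

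Each member was also placed among all measured genes. Besides Fosb, Egr1 and Ier3, given above, the share of genes that lay as high or higher was 6.90% for Fosl1, 15.1% for Jun and 25.5% for Fos. Of all genes, 8.85% of genes lay as low or lower as Egr3, 38.5% as Junb and 43.0% as Egr2.

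**Figure D4:**
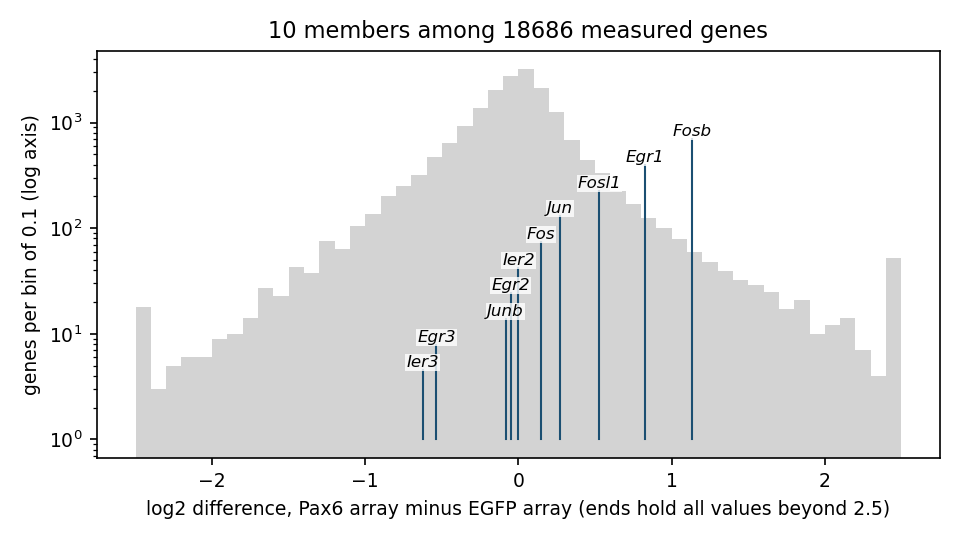
Number of genes per bin of 0.1 in log2 difference (y axis, log scale) over the 18686 measured genes, with values beyond 2.5 collected in the end bins. Lines mark the 10 members and their height carries no value. Fosb and Egr1 lie in the right flank and Ier3 and Egr3 in the left flank, with the other 6 between -0.08 and 0.53.

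Other immediate early and delayed early genes, from a list of 50 of which 44 had a probe and 41 were measured, went both ways. None was at least 2-fold different, against 4.79% of all genes. At the 1.5-fold rule 4 were higher and 6 lower, where the shares over all genes were 5.98% and 7.64%. Above 0 were 20 of 41, against 47.3% of all genes, and the median was -0.01. The highest was Ptgs2, the gene of the inducible cyclooxygenase, at 0.96 ± 0.20 with signals of 274 and 616, and a probe with 10 spots gave 0.97 with an SD of 0.08. Klf2, a Krüppel-like factor, followed at 0.85, but its dimmer probe differed by 0.09. Errfi1, a feedback inhibitor of the EGF receptor, and Rhob differed by 0.62 and 0.61. The lowest were the orphan nuclear receptor gene Nr4a1 (signals of 11797 and 7190) and the antiproliferative gene Btg2, both at -0.93, and 3 probes of Btg2 lay between -0.93 and -0.87. Dusp1, a MAP kinase phosphatase, was at -0.89, Ctgf at -0.69, Fosl2, the gene of Fra-2, at -0.63 and Gadd45b at -0.61. The second probe of Fosl2 had the other sign, at 0.21. Of the Fos family, Fosb and Fosl1 thus differed in the other direction from the brighter probe of Fosl2.

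Further early genes and regulators were read by name or by list. The lists share some genes, Srf and Nab2 among them, so they are not separate sets of observations. Srf, the factor that binds CArG boxes, differed by 0.43 ± 0.20, Ier5 by 0.40 and Atf3 by -0.19. The 3 probes of Myc disagreed, at -0.02 for the brightest, 0.10, and 1.02 with an SD of 0.40 over 10 spots for the dimmest, and which of them read the doxycycline-driven transcript was not tested. Jund had no probe under this name. A probe whose accession matches Jund differed by -0.40, and 1 that matches Sgk1, a kinase gene of the same list, by 1.48. Of 19 measured kinases and transcription factors upstream of the set, none was past the 1.5-fold rule, against 13.6% of all genes. Their median was 0.07, with the ERK gene Mapk3 at -0.24. Elk1 did not clear background in either line. Feedback genes of the ERK pathway had a median of 0.35, and 11 of 14 were above 0, against -0.01 and 47.3% for all genes. Spry1 alone of them was past the 1.5-fold rule by its brightest probe (0.67). Il17rd, at -0.02 by its brightest probe, was past it by the mean (0.67) and the median (0.59) of its probes. Dimer partners of AP-1 and corepressors of EGR factors had a median of 0.05 over 11 measured genes, and the EGR corepressors Nab1 and Nab2, of which Nab2 is itself induced by EGR factors, differed by -0.16 and 0.23.

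Textbook targets of AP-1 lay more often above the 1.5-fold rule than below it. Of 20 measured targets, 8 passed the 1.5-fold rule on the higher side and 0 on the lower side, where the shares over all genes were 5.98% and 7.64%, and the median was 0.30. At least 2-fold higher were 3, against 2.4% of all genes. Mmp10, the gene of the matrix protease stromelysin-2, read 507 and 1691 (1.52 ± 0.20, 2.87-fold). Plau, the gene of urokinase, read 862 and 2254 (1.17, 2.25-fold), and Plaur, the gene of its receptor, 3418 and 8804 (1.15, 2.22-fold). Each of the latter has a second probe, at 1.16 for Plau and 1.12 for Plaur. Among those between 1.5-fold and 2-fold were Ptgs2, Tgfb1 (0.77), Ccnd1, the gene of cyclin D1 (0.75, with an SD of 0.05 over 10 spots), and Mmp3 (0.70). Under the alternative settings between 7 and 9 of these targets were at least 1.5-fold higher, and none was lower by as much. Vim, Cd44, Timp1, Hmga1, Mt1 and Mt2, also on the list, lay between -0.14 and 0.13. Many of these genes are also expressed by fibroblasts and respond to other pathways. Of 11 measured fibroblast markers, 3 of them lower bounds, 4 passed the 2-fold rule as higher and 3 as lower, with a median of 0.29. Of 8 measured epithelial markers, 7 were at least 2-fold lower. The 2-fold shares over all genes were 2.4% higher and 2.39% lower. The part of either cell type in the values of the AP-1 targets was not tested. In RNA of a whole culture, fewer cells of a type and less RNA per cell cannot be told apart.

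Textbook targets of EGR factors had no common direction, with 1 of 13 measured genes past the 2-fold rule as higher, 2 as lower and a median of -0.10. Over all genes 2.4% were higher and 2.39% lower by that rule. F3, the gene of tissue factor, read 1166 and 3218 (1.25 ± 0.20), and its second probe gave 1.45. Pdgfb, a platelet-derived growth factor gene, read 63.1 and 25.2 (-1.54 ± 0.25) and Igf2 89.8 and 49.4 (-1.08 ± 0.22). Both were within 1.5-fold with normexp background correction, whose offset shrinks the differences of dim probes, at -0.52 and -0.54. Between 1.5-fold and 2-fold, Pdgfa differed by -0.68 and Tgfb1, which is also on the list of AP-1 targets, by 0.77.

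**Figure D5:**
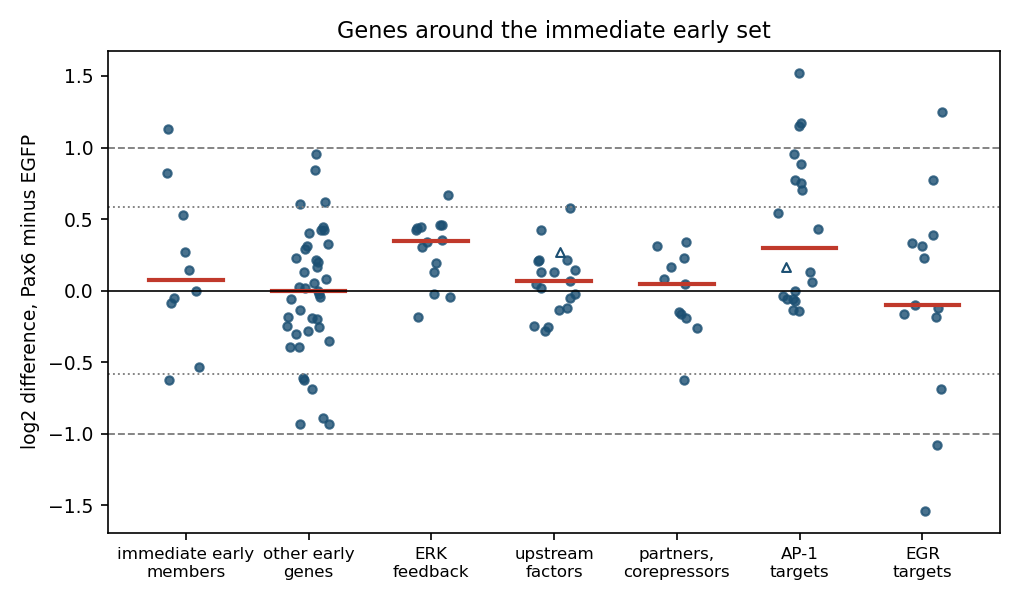
Log2 differences (Pax6 array minus EGFP array, y axis) of the measured genes of the members' list and of 6 lists around it, 1 point per gene, with the median in red and lower bounds as open triangles. Dotted lines mark 1.5-fold and dashed lines 2-fold. The members and the other early genes scatter on both sides of 0, and 8 of 20 AP-1 targets lie above the upper dotted line with none below the lower one.

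The share of 43379 non-control spots that cleared background was 64.7% for EGFP and 67.2% for Pax6, and none was saturated. Both arrays lay on 1 slide with 1 scan time. Pax6 itself, the overexpressed gene, was higher by 0.35 ± 0.20 and by 0.26 ± 0.20 at its 2 bright probes, under 1.5-fold. A dim probe cleared background in the Pax6 line alone, with a signal of 14.8, and which of these probes the transgene's transcript would reach was not tested. The labelled cell type was checked on 18 neural progenitor markers, of which 15 were measured. Vim, Nes, Cdh2, Msi1 and Sox9 were well above background on both arrays, and Sox3, Hes5 and Olig2 on neither. The 8 measured epithelial markers and all but 3 of the 11 measured fibroblast markers also cleared background on both arrays. Clearing background therefore does not tell progenitors from those cell types. Slc1a3, which encodes a glutamate transporter, was 12.9-fold lower on the Pax6 array (signals of 306 and 27.5, with a second probe at -1.79). Nes was 3.17-fold lower and Sox2, one of the inducible factors, 3.35-fold higher on the Pax6 array. The progenitor markers had no common direction. Of the 15 measured, 3 were at least 1.5-fold higher and 3 lower, where the shares over all genes were 5.98% and 7.64%. In all, 10 of the 15 were above 0, and their median was 0.03. Of the neuron markers 5 were measured and 1 was at least 2-fold lower, against 2.39% of all genes. Of the microglia and blood markers and the endothelial markers 4 each were measured, none past 1.5-fold. As early genes also respond to heat and handling, a list of stress genes was read beside them. Of its 8 measured genes, 7 lay within 1.5-fold, Hspa1a differed by 0.01, and Hspb1 was 1.70-fold lower. The part of handling in the members' values was not tested.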

How the data were processed

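Total RNA of 2 lines was labelled with Cy3 and hybridised to 1 Agilent array each, per the labels' protocols. Version 10.7.3.1 of Agilent Feature Extraction made the files, as their headers say. Per the file headers, it subtracted background from each spot's intensity and corrected spatial trends, with nothing done across arrays. The software's flags, deposited beside the signals, mark outlier spots and spots at least 13 background SDs above background. The authors' value table for the series is identical in intensity.

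Spots flagged as outliers on either array were left out (43283 kept). Log2 signals were centred on each array's 75th percentile, replicate spots averaged, and a gene took its brightest probe over both arrays, named by the array's own gene names. A gene was used when well above background on at least 1 array. For the 1375 genes seen on 1 array only, the difference is a lower bound. The measurement error has a multiplicative part of 10.0%. Alternatives used limma 3.58.1, with an offset of 50 in the normexp background correction. The steps were tested on simulated data.

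The members and lists were chosen with earlier results of these data known. The genes named were all members, genes at least 2-fold different in each pathway list (up to 6), 10 others chosen by name, and, from the cell type lists, those that check the labelled cell type. Further list genes are examples chosen after their values were seen, as were the alternatives for the AP-1 targets and for the 1.5-fold count of other early genes. Values of 2 list genes are not reported here.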

Additional observations from a re-analysis of the deposited data

How the results depend on the processing

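The members were recomputed under 12 alternative settings (scaling by the median, quantile, cyclic loess or spike-ins, normexp background correction, the authors' value table, averaging each gene's probes or taking their median, 2 other filters, dim values as measured and current symbols), and 116 of the 120 values moved by less than their measurement error. The exceptions were Fosb (0.58) and Egr3 (-0.32) with normexp background correction and Ier2 (-0.21) with the mean or median of its probes. Much of this stability was built in. The authors' value table, the 2 other filters, dim values as measured and current symbols gave every member its main value. Averaging probes or taking their median changed only Junb and Ier2. Scaling by the median or the spike-ins shifted all members by the same amount. No member past 1.5-fold changed sign, and the members' median lay between 0.02 and 0.16. With normexp background correction 0 members were at least 2-fold different, 1 was at least 1.5-fold different (Egr1), and all genes at least 2-fold different numbered 282 (62.1% of them higher, against 50.1% of 895). Without a filter on dim probes they numbered 2483. Of the other early genes 1 was at least 2-fold different after scaling by the median (Ptgs2) and 1 with current symbols (Sgk1). Median scaling adds the same amount to every gene measured on both arrays, and Sgk1 has no probe under its own name in the main setting. How much of the fall to 282 comes from the normexp offset was not tested. Asking also for more than 2 times the measurement error could not lower the members' counts of 1 and 3. The errors of Fosb, Egr1 and Ier3 were 0.22, 0.20 and 0.20, too small for a difference of 1.5-fold to fail, so this is no added support. Low signal limits Fos, Fosb, Egr2 and Egr3, and 1 array per line limits every comparison. No paired analysis was possible because each group has 1 array.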
